A study of Mus musculus with 12 samples.

Results

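RNA of mouse dermal fibroblasts sorted for the surface protein Dlk1 was compared with RNA of fibroblasts from the same tissue that were sorted for other markers. The comparison pooled the 3 arrays of Dlk1+Sca1- cells and the 3 arrays of Dlk1+Sca1+ cells, and set these 6 arrays against the 3 arrays of CD26+ cells and the 3 arrays of Dlk1-Sca1+ cells, so that all 12 arrays of the series were used. Cells came from the back skin dermis of wild-type mice at postnatal day 2 with no treatment, and each array is labelled a biological replicate, which the study says came from different mice. The study describes reporter mice in which Pdgfra-expressing cells carry a nuclear green fluorescent protein and sorted the fluorescent cells, whereas the labels give only the wild-type genotype. It names CD26+Sca1- cells papillary fibroblasts, Dlk1+Sca1- cells reticular fibroblasts, and both Sca1+ populations pre-adipocytes. Whether a replicate is 1 mouse or a pool is not stated, and p-values measure the spread between arrays.

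Dlk1 is a transmembrane protein with EGF-like repeats, related to Notch ligands but without their DSL domain, whose shed extracellular part holds back adipocyte differentiation. Its gene is imprinted, expressed from the paternal chromosome in an imprinted domain that ends near Dio3, and is on in many fetal and neonatal mesenchymal cells. In skin at birth, Dlk1 marks fibroblasts of the lower dermis, below the papillary layer that abuts the epidermis and carries CD26, a peptidase encoded by Dpp4.

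RNA was hybridized to Affymetrix Mouse Gene 2.0 ST arrays, and all levels below are the deposited log2 values, so that a difference of 1 is a doubling of the signal. The sort itself was checked first. Dlk1 (chr12:109452485-109463336, GRCm38) ranged from 9.78 to 10.23 on the 6 Dlk1+ arrays (median 10.08) and from 8.09 to 8.69 on the other 6 (median 8.50). Dpp4 ranged from 7.92 to 9.40 (median 9.13) against 9.37 to 10.51 (median 10.07). The Dlk1 arrays did not overlap, and the Dpp4 arrays overlapped only at Dlk1-Sca1+ replicate 3 (9.37) and Dlk1+Sca1+ replicate 2 (9.40). These values follow from the gates and are no finding. Ly6a, which encodes Sca1, had no probe set assigned to it alone and is not reported. Fibroblast genes were high on every array, with Col1a1 between 12.19 and 12.56, Col1a2 between 12.62 and 12.88, and Dcn between 11.98 and 12.45.

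One array stood apart. Dlk1-Sca1+ replicate 3 had more Dlk1 (8.69) than replicates 1 and 2 (8.09 and 8.32), and over all genes, centered per gene, its mean correlation was 0.06 with Dlk1+Sca1+ arrays and -0.07 with its own population. The study left out 1 Dlk1-Sca1+ sample of this description without giving its number. Results are therefore given with 12 arrays and again with 11, without this replicate.

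Dlk1+ fibroblasts differed from the others in 460 of 22180 genes (2.07%), of which 177 were higher (0.798% of all genes) and 283 lower (1.28%). The test was limma with 1 mean per population, two-sided, and a gene was called at a Benjamini-Hochberg adjusted p of at most 0.05. The difference is the mean of both Dlk1+ populations minus the mean of both others. The median difference over all genes was 0.01. In 423 of the called genes (1.91% of all genes; 154 higher, 269 lower) each Dlk1+ population lay on the same side of both other populations. Such a common direction was seen in 41% of all genes, so it is no rare order by itself. With 11 arrays, 709 genes (3.2%) were called, 265 higher (1.19%) and 444 lower (2%), and 668 (3.01%) had a common direction. Called in both fits with the same sign were 428 genes, which is 93% of the 12-array calls and 60.4% of the 11-array calls. The count depended on the arrays and the processing. It was 181 without CD26+ replicate 1 and 188 without Dlk1-Sca1+ replicate 2. A fit with 1 mean for all Dlk1+ arrays and 1 for all others called 184. After quantile normalization 167 genes were higher and 164 lower.

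Complete separation was less frequent. In 284 genes (1.28%; 102 higher and 182 lower) all 6 Dlk1+ arrays lay on one side of all 6 others, and 154 of these (0.694% of all genes) were called. Without Dlk1-Sca1+ replicate 3 the order was found in 756 genes (3.41%), 454 of them called.

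Calls in all 4 single comparisons, each Dlk1+ population against each other population, were made for 9 genes (0.0406%), and for 30 (0.135%) with 11 arrays. Apart from Dlk1, higher genes were Itgbl1, a secreted protein with integrin beta-like repeats (1.35 ± 0.16 SE, adjusted p = 0.00115), and Mest (1.23 ± 0.17, adjusted p = 0.00385), an imprinted gene named for its expression in mesoderm. Lower genes were the vesicle trafficking gene Sytl2, the receptor regulator Lrig1, and Wls (-1.31 ± 0.13, adjusted p = 0.000381), which carries Wnt proteins to the cell surface for secretion. Also lower were Cav1 (-0.86 ± 0.09), the coat protein of caveolae, Mical2 (-1.33 ± 0.11), which oxidizes actin, and Itih5 (-1.30 ± 0.13), a hyaluronan-associated protein. Itgbl1, Wls, Cav1, Mical2 and Itih5 were named after their values were seen. Without 1 array the number ran from 1 to 30.

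**Figure D1:**
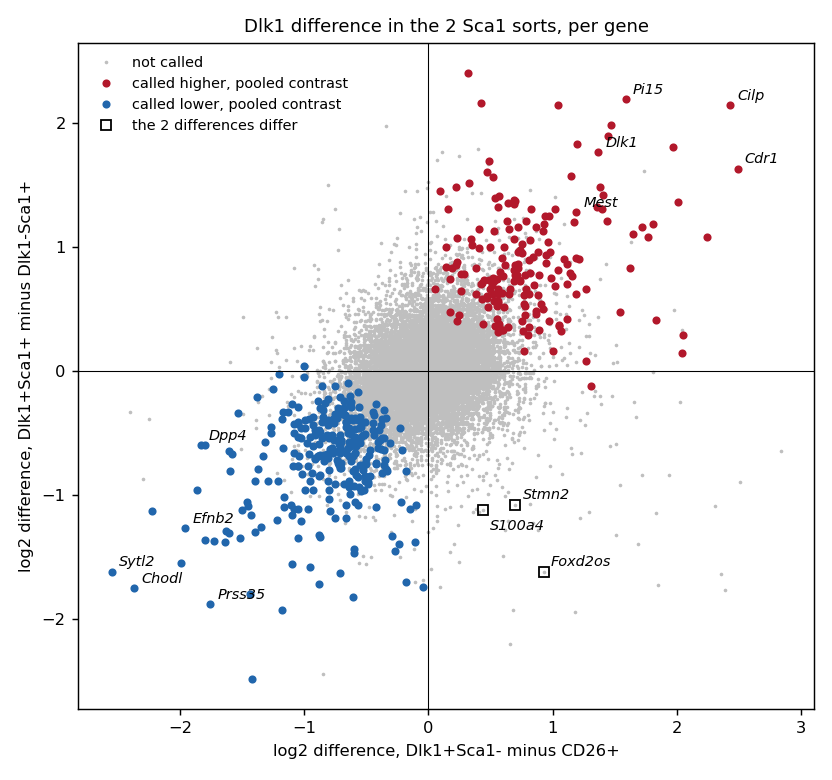
Each point is 1 of 22180 genes, with the log2 difference Dlk1+Sca1- minus CD26+ on the x axis and Dlk1+Sca1+ minus Dlk1-Sca1+ on the y axis. Red and blue points are the 177 genes called higher and the 283 called lower in the pooled comparison, and squares mark the 3 genes whose 2 differences were called as different from each other.

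The pooled comparison joins 2 Dlk1 differences that share no array. Between the Sca1-negative sorts (Dlk1+Sca1- minus CD26+) 137 genes were called (0.618%) and between the Sca1-positive sorts (Dlk1+Sca1+ minus Dlk1-Sca1+) 88 (0.397%). With 11 arrays the counts were 243 (1.1%) and 263 (1.19%). Over all genes the 2 differences correlated at r = 0.32, and at 0.37 with 11 arrays. The other split of the same populations into 2 differences that share no array, Dlk1+Sca1- minus Dlk1-Sca1+ and Dlk1+Sca1+ minus CD26+, correlated at 0.04, and at 0.16 with 11 arrays. These are descriptions across genes, which are not independent replicates. Among the 154 higher genes with a common direction, 95 moved further between the Sca1-positive sorts, and among the 269 lower genes 169 moved further between the Sca1-negative sorts. The other comparisons reuse the same arrays. Dlk1+Sca1+ minus CD26+ gave 689 calls (3.11%; 826 and 3.72% with 11 arrays) and Dlk1+Sca1- minus Dlk1-Sca1+ gave 100 (0.451%; 131 and 0.591% with 11 arrays).

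The matrix gene Cilp and the X-linked gene Cdr1 had the largest of the 14 named rises. Cilp (chr9:65265180-65280614), a matrix protein first known from cartilage, ranged from 6.55 to 8.74 on Dlk1+ arrays (median 6.91) and from 4.27 to 6.09 on the others (median 4.81). The groups did not overlap, and the 3 highest values were those of Dlk1+Sca1- cells. Cilp rose by 2.28 ± 0.24 SE (adjusted p = 0.000413, and 0.00048 with 11 arrays). Cdr1 (chrX:61183246-61185558), a gene without introns whose locus also gives an antisense circular RNA that is not reported here, ranged from 6.79 to 7.87 (median 7.31) against 4.36 to 7.54 (median 4.91). One array alone caused the overlap, since Dlk1-Sca1+ replicate 3 had 7.54 and replicates 1 and 2 had 5.23 and 5.48. Cdr1 rose by 2.06 ± 0.31 with 12 arrays (adjusted p = 0.00605) and by 2.43 ± 0.12 with 11 (adjusted p = 9.01e-07).

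Other large rises included the heparin-binding growth factor gene Ptn, whose Dlk1+ arrays (9.76 to 10.54) lay above all others (8.0 to 9.40), with a difference of 1.67 ± 0.25 (adjusted p = 0.00649). The secreted peptidase inhibitor gene Pi15 rose by 1.89 ± 0.29 (adjusted p = 0.00668). Adam23, an ADAM family adhesion protein without protease activity, rose by 1.73 ± 0.20 (adjusted p = 0.000863), and the secreted angiopoietin-like gene Angptl1 by 1.52 ± 0.22 (adjusted p = 0.00412). Agtr2, the type 2 receptor for angiotensin II, ranged from 9.75 to 10.78 on Dlk1+ arrays (median 10.18) and from 8.27 to 9.84 on the others (median 8.72), and rose by 1.42 ± 0.15 (adjusted p = 0.000442). The kinase gene Nrk rose by 1.89 ± 0.25, the homeobox zinc finger gene Zfhx4 by 1.42 ± 0.23, and Fndc1, a secreted protein with fibronectin repeats, by 1.43 ± 0.25 (adjusted p = 0.00252, 0.00719 and 0.011). Cdr1, Nrk and Agtr2 lie on the X chromosome, which held 13 of the 177 higher genes (7.34%), 7 of the 283 lower genes (2.47%) and 4.05% of all genes tested. None of 4 measured sex-linked genes was called.

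The largest of the 14 named falls were those of Sytl2 and Chodl. Sytl2 (chr7:90302211-90410719), whose product binds Rab27 on vesicles, ranged from 5.47 to 6.46 on Dlk1+ arrays (median 6.11) and from 7.03 to 8.74 on the others (median 8.26). Chodl (chr16:78930841-78951736), a membrane protein with a C-type lectin domain, ranged from 5.38 to 6.54 (median 5.90) against 6.71 to 8.86 (median 8.21). In neither gene did the groups overlap, and in both Dlk1-Sca1+ replicate 3 was the lowest of the other arrays. Sytl2 fell by 2.08 ± 0.20 (adjusted p = 0.000231) and Chodl by 2.06 ± 0.18 (adjusted p = 0.000138). Separation was also complete for the secreted protease-like gene Prss35 (-1.82 ± 0.22, adjusted p = 0.00121), the neural adhesion gene Dscam (-1.68 ± 0.21, adjusted p = 0.00148), the anion channel subunit Lrrc8b (-1.56 ± 0.24, adjusted p = 0.00553) and Lrig1, which lowers epidermal growth factor receptor signaling (-1.46 ± 0.15, adjusted p = 0.000381).

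Entpd1, which encodes the ATP-degrading ectoenzyme CD39, ranged from 5.69 to 7.37 on Dlk1+ arrays (median 6.12) and from 6.45 to 8.57 on the others (median 8.28). Only Dlk1-Sca1+ replicate 3 (6.45) reached into the Dlk1+ range. Entpd1 fell by 1.62 ± 0.26 (adjusted p = 0.0076), and fell by 1.90 with 11 arrays. Integrin alpha 4 (Itga4) fell by 1.55 ± 0.23 (adjusted p = 0.00424), the contactin gene Cntn4 by 1.77 ± 0.22 (0.00136), the ubiquitin ligase gene Trim36 by 1.58 ± 0.21 (0.00201), and Ndst3, an enzyme of heparan sulfate synthesis, by 1.43 ± 0.18 (0.00148). The receptor gene Fgfr4 fell by 1.51 ± 0.28 (adjusted p = 0.0157), and leaving out CD26+ replicate 1 brought its adjusted p to 0.0539.

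Across these 28 genes, the Dlk1+ arrays and the others did not overlap in 4 of 14 rises and 6 of 14 falls, against 0.46% and 0.821% of all genes. The genes were ranked by the same difference, and 1 of the separated rises is Dlk1 itself, fixed by the gate, so nothing is read from this. Dlk1-Sca1+ replicate 3 was the highest of the 6 other arrays in 10 of the rises and the lowest in 13 of the falls. Without it, 12 rises and all 14 falls did not overlap, against 1.04% and 2.37% of all genes. In each of the 12 fits that left out 1 array, 26 of the 28 genes, Dlk1 included, were called; Fgfr4 and Sfrp4 were the exceptions.

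**Figure D2:**
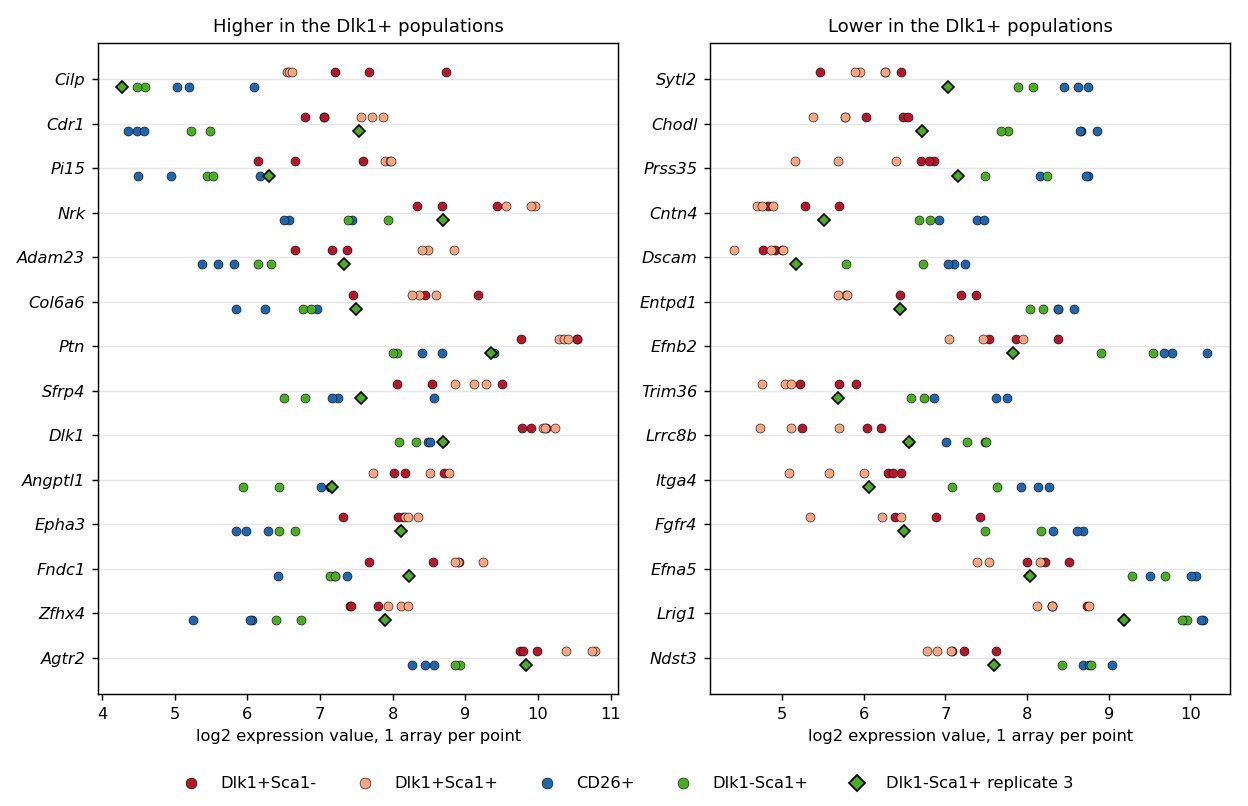
Log2 expression values of the 14 largest rises (left) and 14 largest falls (right), 1 point per array, with Dlk1+ populations on the upper and the others on the lower row of each gene. Diamonds mark Dlk1-Sca1+ replicate 3, which was the highest of the 6 other arrays in 10 rises and the lowest in 13 falls.

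An ephrin receptor rose while 2 ephrins fell. Ephrins are membrane-bound ligands that signal between touching cells, and EphA receptors bind mainly the ephrin-A class. The receptor Epha3 ranged from 7.32 to 8.35 on Dlk1+ arrays (median 8.16) and from 5.84 to 8.11 on the others (median 6.36). The ligand Efna5, which binds Epha3, ranged from 7.39 to 8.51 (median 8.08) against 8.04 to 10.07 (median 9.6), and Efnb2 from 7.05 to 8.38 (median 7.70) against 7.83 to 10.20 (median 9.61). In all 3 genes Dlk1-Sca1+ replicate 3 alone lay within the Dlk1+ range. Epha3 rose by 1.5 ± 0.25 (adjusted p = 0.00895), Efna5 fell by 1.46 ± 0.25 (adjusted p = 0.0101) and Efnb2 fell by 1.62 ± 0.26 (adjusted p = 0.00895). The Slit receptor Robo1 fell by 1.02 ± 0.16 (adjusted p = 0.00692), without a common direction of its 4 population differences. Of 60 axon guidance ligands and receptors 1 rose and 4 fell (median -0.05), where 0.798% of all genes rose and 1.28% fell, and 2 rose and 6 fell with 11 arrays.

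Imprinting limits expression to the allele of 1 parent and is common among genes that control fetal growth. Of 20 measured imprinted genes outside the Dlk1 domain, 8 rose and none fell, where 0.798% of all genes rose, and 18 had a difference above 0. The median difference was 0.34, against 0.01 over all genes. The mean level of the 20 genes was 7.84 to 8.08 on Dlk1+ arrays and 7.46 to 7.78 on the others, so that the arrays did not overlap, and Dlk1-Sca1+ replicate 3 had the 7.78. Mest (chr6:30733506-30748466) ranged from 9.82 to 10.60 on Dlk1+ arrays (median 10.08) and from 8.58 to 9.44 on the others (median 8.76). Igf2 (chr7:142650768-142666816), the fetal insulin-like growth factor, ranged from 10.10 to 10.84 (median 10.56) against 9.49 to 10.03 (median 9.54). Neither gene overlapped between the groups, and in Igf2 the CD26+ arrays lay within 9.50 to 9.56.

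Igf2 rose by 0.85 ± 0.11 (adjusted p = 0.00226), 0.75 ± 0.16 between the Sca1-negative sorts and 0.95 ± 0.16 between the Sca1-positive sorts. The amino acid transporter gene Slc38a4 rose by 0.99 ± 0.15 (adjusted p = 0.00605) and Cdkn1c, an inhibitor of cyclin-dependent kinases, by 0.78 ± 0.14 (adjusted p = 0.011). Mest, Igf2 and Slc38a4 are expressed from the paternal and Cdkn1c from the maternal allele, so genes of both origins are among those that rose. The remaining calls were Zdbf2 (0.75), Gnas (0.57), Plagl1 (0.53) and Zim1 (0.53), and only Plagl1 of these held in all 12 fits that left out 1 array. Zim1 was not called with 11 arrays (adjusted p = 0.0506). The count was 5 without replicate 1 of CD26+, of Dlk1+Sca1+ or of Dlk1-Sca1+ or without replicate 2 of the last, and 6 or 7 in the other fits that left out 1 array. Igf2r, which takes up Igf2 for degradation, had a difference of 0.33 ± 0.12, and Nnat, a neuronal imprinted gene, one of -0.26 ± 0.15, neither called.

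Dlk1 shares its domain on chromosome 12 with the maternally expressed noncoding RNAs Meg3 and Rian and with a large microRNA cluster. From the start of Dlk1 to the end of Dio3, 54 genes were measured, with Dlk1, fixed by the gate, among them. In 47 of the 54 the difference was above 0 (median 0.40, against 0.01 over all genes). Apart from Dlk1 itself 2 rose, where 0.798% of all genes rose. Rian, host of small nucleolar RNAs, ranged from 10.81 to 11.16 on Dlk1+ arrays (median 11.02) and from 10.53 to 10.74 on the others (median 10.69), which did not overlap, and rose by 0.35 ± 0.07 (adjusted p = 0.0189), a call that held in 8 of the 12 fits that left out 1 array. Meg3 ranged from 10.85 to 11.38 against 10.60 to 11.03, with a difference of 0.35 ± 0.10 that was not called with 12 arrays (adjusted p = 0.091) and was with 11 (adjusted p = 0.0345). Dio3, at the far end, had a difference of 0.10 ± 0.17 (adjusted p = 0.845). The domain had 5 calls with 11 arrays, 6 with array weights, and 1 call after omission of replicate 1 of CD26+, replicate 1 or replicate 2 of Dlk1-Sca1+, or replicate 3 of Dlk1+Sca1+. Several of its members derive from shared host transcripts and are not independent.

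**Figure D3:**
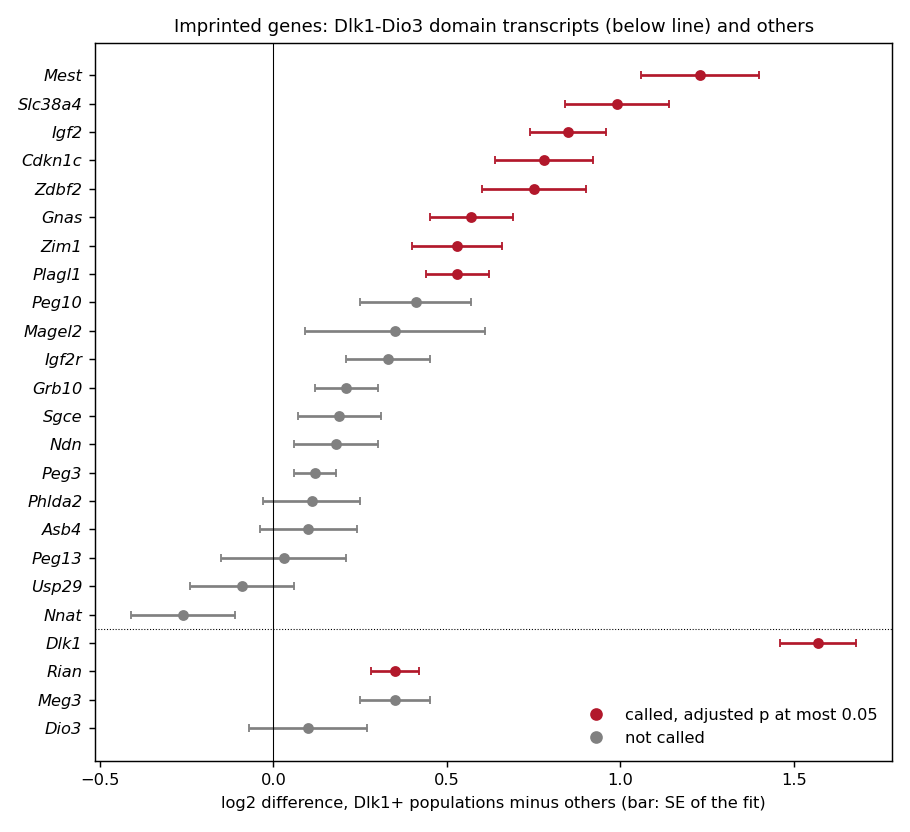
Log2 difference, Dlk1+ populations minus others, with the SE of the fit, for 4 transcripts of the Dlk1-Dio3 domain (below the dotted line) and 20 imprinted genes elsewhere. Red points were called at an adjusted p of at most 0.05, and 18 of the 20 genes above the line lie to the right of 0.

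The microRNA gene Mir329 was the third call of the domain. Its probe set reads the hairpin or its precursor and not the mature microRNA. Mir329 ranged from 7.73 to 9.68 on Dlk1+ arrays (median 9.26) and from 7.49 to 8.52 on the others (median 8.03), overlapping only through Dlk1+Sca1- replicate 3 (7.73). It rose by 1.04 ± 0.24 (adjusted p = 0.0469), and the call held in 2 of the 12 fits that left out 1 array. Among 484 microRNA genes 6 rose (1.24%) and 1 fell (0.207%), against 0.798% and 1.28% of all genes, so that the share of rises lay near that of all genes. One of the others, Mir362 on the X chromosome, named after its values were seen, ranged from 4.86 to 6.99 on Dlk1+ arrays (median 5.46) and from 3.84 to 4.53 on the others (median 4.24), without overlap. It rose by 1.34 ± 0.31 (adjusted p = 0.0482) and was not called with 11 arrays (adjusted p = 0.0673). The mature sequences are printed because the 3p arms of both genes have the same seed, bases 2 to 8, which are in capitals (RefSeq, GRCm38.p6).
miR-329-3p, chr12:109713541-109713562, plus strand: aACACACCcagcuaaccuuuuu
miR-362-3p, chrX:7241984-7242005, minus strand: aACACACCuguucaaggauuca
miR-329-5p, chr12:109713503-109713524, plus strand: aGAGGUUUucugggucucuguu
miR-362-5p, chrX:7242019-7242042, minus strand: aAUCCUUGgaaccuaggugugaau
The seed ACACACC was found in these 2 mature microRNAs and in no other one of the genes tested, and the 5p arms have different seeds.

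Several lists of matrix genes, also chosen with earlier results of these data known, had rises and no falls with 12 arrays. Of 21 matricellular genes, which encode matrix proteins that act on cells more than on tissue strength, 5 rose and none fell (median 0.25), where 0.798% of all genes rose and 1.28% fell. Besides Cilp these included Thbs4 (1.66 ± 0.26, adjusted p = 0.00628), a thrombospondin of tendon and muscle, Thbs3 (1.00 ± 0.19, adjusted p = 0.0151) and the tenascin gene Tnxb (0.79 ± 0.15, adjusted p = 0.0157). Thbs4 reached 10.15 in Dlk1+Sca1- cells, where its difference from CD26+ was 2.24 ± 0.36, against 1.08 ± 0.36 between the Sca1-positive sorts, and its 4 population differences did not all point one way. Of 14 small leucine-rich proteoglycans, which bind collagen fibrils, 5 rose and none fell (median 0.19). With 11 arrays 1 of them fell, the lumican gene Lum (-0.46, adjusted p = 0.0223), whose difference with 12 arrays was -0.37 ± 0.11 (adjusted p = 0.13). Fmod, which encodes fibromodulin, ranged from 7.40 to 8.55 on Dlk1+ arrays (median 7.76) and from 6.12 to 7.45 on the others (median 6.59), and rose by 1.16 ± 0.25 (adjusted p = 0.0306). Only CD26+ replicate 2 (7.45) reached the lowest Dlk1+ array. Ecm2 rose by 0.91 ± 0.15 (adjusted p = 0.00723), Ogn by 0.68 ± 0.13 (0.0158) and Kera by 0.58 ± 0.12 (0.0293). The calls of Fmod and Kera held in 4 and 3 of the 12 fits that left out 1 array, that of Ogn ended without CD26+ replicate 1, that of Thbs3 without Dlk1-Sca1+ replicate 2, and that of Tnxb without either. Of the matricellular genes 3 rose without CD26+ replicate 1 and 2 without Dlk1-Sca1+ replicate 2. Of the proteoglycans 2 rose without CD26+ replicate 1. Without replicate 1 or 3 of Dlk1+Sca1-, replicate 2 of either Sca1+ population, or replicate 3 of CD26+, 3 of them rose.

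Elastic fiber genes rose in 4 of 19 cases with none lower (median 0.18), where 0.798% of all genes rose and 1.28% fell. The list mean was highest on Dlk1+Sca1+ arrays (9.34 to 9.46). Dlk1+Sca1- arrays (8.96 to 9.13) overlapped Dlk1-Sca1+ arrays (8.85 to 9.11), and CD26+ arrays had 8.79 to 8.94. Eln, the gene of elastin, ranged from 9.96 to 10.85 on Dlk1+ arrays (median 10.58) and from 9.36 to 10.61 on the others (median 9.51), and rose by 0.73 ± 0.17 (adjusted p = 0.0414). Its difference was 0.16 ± 0.24 between the Sca1-negative and 1.30 ± 0.24 between the Sca1-positive sorts, and its call held in 3 of the 12 fits that left out 1 array. Lox, which crosslinks elastin and collagen, rose by 0.65 ± 0.12 (adjusted p = 0.0131). Ltbp1 and Ltbp2, which hold latent TGF-beta in the matrix or bind microfibrils, rose by 0.77 ± 0.12 and 0.60 ± 0.12 (adjusted p = 0.00605 and 0.0164). Without Dlk1-Sca1+ replicate 2 the list had 2 calls, and Ltbp2 was not called (adjusted p = 0.0532).

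Collagen chains showed no common direction. Of 36 measured, 3 rose and 1 fell (median 0.04), where 0.798% of all genes rose and 1.28% fell. The rises were Col6a6 (1.68 ± 0.27, adjusted p = 0.00755), Col14a1 (1.01 ± 0.17, adjusted p = 0.00784) and Col12a1 (0.41 ± 0.08, adjusted p = 0.0255), the last 2 of which bind to the surface of collagen fibrils. Col12a1 was called in 5 of the 12 fits that left out 1 array and was not called without trend and robust fitting (adjusted p = 0.0748). Col7a1, the anchoring fibril collagen that fastens the epidermal basement membrane to the dermis, fell by 0.94 ± 0.15 (adjusted p = 0.00604). It ranged from 6.78 to 7.83 on Dlk1+ arrays and from 7.53 to 8.69 on the others, with Dlk1-Sca1+ replicate 3 in the overlap. Of 22 basement membrane genes 2 fell, Col4a5 (-1.13 ± 0.16, adjusted p = 0.00413) and the perlecan gene Hspg2 (-0.51 ± 0.09, adjusted p = 0.0108), while the list median was 0.12. None of the list rose with 12 arrays, 2 rose with 11 or without Dlk1+Sca1- replicate 3, and 3 rose with array weights. Col4a5 separated completely, with 4.65 to 5.70 on Dlk1+ arrays and 6.14 to 6.66 on the others. Col1a1 and Col1a2 differed by 0.07 ± 0.06 and 0.09 ± 0.05 and were not called. Among 34 proteases and inhibitors 4 rose and 1 fell, with Adamts20 (1.00 ± 0.19), Adamts19 (0.88 ± 0.17) and the metalloproteinase inhibitor Timp1 (0.85 ± 0.14) among the rises. With 11 arrays 6 rose and 3 fell. Without CD26+ replicate 1 only Timp1 of these 3 was called and the rises were 1, and without Dlk1-Sca1+ replicate 2 they were 2. The count of falls was 0 to 3 over the fits that left out 1 array.

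In the insulin-like growth factor axis, binding proteins hold the ligands outside the cell. Over all genes 0.798% rose and 1.28% fell. Of 19 measured members 4 rose and none fell (median 0.27): Igf2, the binding proteins Igfbp7 (1.17 ± 0.18, adjusted p = 0.00647) and Igfbp3 (1.09 ± 0.20, adjusted p = 0.017), and Pappa2 (0.96 ± 0.19, adjusted p = 0.0227), a protease that cleaves binding proteins. Igfbp7 lay between 8.86 and 9.21 on Dlk1+ arrays (median 9.04). The others spread from 6.72 to 9.50, with CD26+ arrays at 6.72 to 7.34 and Dlk1-Sca1+ replicate 3 at 9.50. The difference was 2.05 ± 0.26 between the Sca1-negative sorts and 0.29 ± 0.26 between the Sca1-positive sorts (0.67 with 11 arrays), and for Igfbp3 2.04 ± 0.29 and 0.14 ± 0.29. The 2 differences were not called as unlike each other in either gene (adjusted p = 0.189 and 0.242). Pappa2 showed the reverse order, with 0.54 ± 0.27 and 1.39 ± 0.27. Igfbp3 was not called without CD26+ replicate 1 or Dlk1-Sca1+ replicate 2, nor Pappa2 without Dlk1+Sca1+ replicate 1, CD26+ replicate 1 or CD26+ replicate 2 (highest adjusted p = 0.0575 and 0.0659). The list had 2 calls without CD26+ replicate 1.

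FGF and PDGF genes moved in both directions, with 2 of 23 higher and 2 lower (median 0.04), where 0.798% of all genes rose and 1.28% fell. Fgf7, the keratinocyte growth factor made by mesenchyme, ranged from 8.97 to 9.56 on Dlk1+ arrays (median 9.38) and from 7.42 to 8.75 on the others (median 8.46), and rose by 0.99 ± 0.17 (adjusted p = 0.00861). The receptor gene Fgfr2 ranged from 8.50 to 9.29 (median 8.89) against 9.31 to 9.77 (median 9.45), and fell by 0.58 ± 0.08 (adjusted p = 0.00268). Neither overlapped. Pdgfrl, a PDGF receptor-like protein, rose by 0.81 ± 0.12 (adjusted p = 0.00527), whereas Pdgfra itself differed by -0.41 ± 0.12 (adjusted p = 0.12), and by -0.52 with 11 arrays (adjusted p = 0.0126). Of 25 BMP and activin genes 2 rose and 2 fell (median 0.01). Bmp3 (1.12 ± 0.21) and Gdf10 (0.73 ± 0.14), related ligands, rose (adjusted p = 0.0149 and 0.0159), and the secreted BMP antagonists Grem1 (-1.12 ± 0.25) and Nbl1 (-0.91 ± 0.16) fell (adjusted p = 0.0402 and 0.00887). Grem1 was called in 3 of the 12 fits that left out 1 array, and Gdf10 was not called without Dlk1-Sca1+ replicate 1 (adjusted p = 0.0516).

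Wnt feedback and target genes were lower in 4 of 18 cases and higher in 1 (median -0.22), where 1.28% of all genes fell. With 11 arrays 8 were lower (median -0.42). The count was 3 without CD26+ replicate 3 and 0 to 2 without each of the 10 other arrays. The list mean was 7.94 in CD26+, 7.73 in Dlk1+Sca1-, 7.65 in Dlk1-Sca1+ and 7.36 in Dlk1+Sca1+ cells. With 12 arrays this is no common direction. Dlk1-Sca1+ replicates 1, 2 and 3 had 7.79, 7.87 and 7.28. Without replicate 3 both Dlk1+ populations lay below both others, since replicates 1 and 2 were above the mean of Dlk1+Sca1- cells. Axin2, the feedback inhibitor induced by canonical Wnt signals, ranged from 7.23 to 8.10 on Dlk1+ arrays (median 7.48) and from 7.24 to 9.28 on the others (median 8.38), and fell by 0.78 ± 0.17 (adjusted p = 0.0333). The secreted inhibitor Dkk1 fell by 0.86 ± 0.18 (adjusted p = 0.0284) and the membrane inhibitor Apcdd1 by 0.82 ± 0.19 (adjusted p = 0.0469). These calls held in 3, 4 and 2 of the 12 fits that left out 1 array, and those of Axin2 and Apcdd1 ended after quantile normalization. Lgr5, a receptor for R-spondins, went the other way and rose by 1.09 ± 0.17 (adjusted p = 0.00605). Its highest arrays were the Dlk1+Sca1+ ones at 9.6 to 9.92, and the difference was 0.49 ± 0.24 between the Sca1-negative and 1.69 ± 0.24 between the Sca1-positive sorts.

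Among 45 genes for Wnt ligands, their receptors or secreted modulators, 2 were called higher and 3 lower (median -0.05). When single arrays were left out, 1 to 5 of them were lower. For this list and those that follow, the shares over all genes were 0.798% higher and 1.28% lower. Sfrp4, a secreted Wnt-binding protein, ranged from 8.06 to 9.51 on Dlk1+ arrays (median 8.99) and from 6.50 to 8.57 on the others (median 7.21), and rose by 1.59 ± 0.30 (adjusted p = 0.0195). It was not called after leaving out CD26+ replicate 1 or either of Dlk1-Sca1+ replicates 1 and 2 (highest adjusted p = 0.0642). The receptor Fzd4 rose by 1.05 ± 0.17 (adjusted p = 0.00789) and the antagonist Dkk2 fell by 1.31 ± 0.19 (adjusted p = 0.00446). Of 15 upper dermis markers, a list that also holds Axin2 and Apcdd1, 5 fell and none rose (median -0.33). With 11 arrays 7 fell, and without each of the 11 other arrays in turn 2 to 5 fell. The mean of the upper dermis list was 8.27 in CD26+, 7.89 in Dlk1+Sca1-, 7.73 in Dlk1-Sca1+ and 7.11 in Dlk1+Sca1+ cells. With 12 arrays the list mean was thus not lower in both Dlk1+ populations than in both others. Dlk1-Sca1+ replicates 1, 2 and 3 had 7.94, 8.02 and 7.23. Without replicate 3 the list mean was lower in both, since replicates 1 and 2 lay above the mean of Dlk1+Sca1- cells. Trps1, a transcriptional repressor of hair and cartilage development, fell by 1.21 ± 0.23 (adjusted p = 0.0158), with a difference of -0.61 ± 0.32 between the Sca1-negative and -1.82 ± 0.32 between the Sca1-positive sorts. Of 15 Hedgehog genes 2 fell, the transcription factor Gli3 (-0.74 ± 0.16, adjusted p = 0.027) and the co-receptor Cdon (-0.49 ± 0.11, adjusted p = 0.0371), called in 6 and 3 of the 12 fits that left out 1 array. Trps1 was not called without CD26+ replicate 1 or Dlk1-Sca1+ replicate 2 (highest adjusted p = 0.0546). Fzd4, Apcdd1 and Trps1 had no common direction.

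Of 27 genes of mitosis and the spindle, 9 fell and none rose, against 1.28% of all genes that fell, and none of the 27 had a difference above 0 (median -0.64). The mean level of the list was 7.0 to 7.42 on Dlk1+ arrays. It was 7.75 to 7.97 on CD26+ arrays, 8.03 and 8.10 on Dlk1-Sca1+ replicates 1 and 2, and 7.26 on replicate 3. The last array alone lay within the Dlk1+ range, and without it 23 of the 27 genes fell (median -0.77). Without CD26+ replicate 1 only 1 of them fell, without Dlk1-Sca1+ replicate 1 or 2 it was 2, without CD26+ replicate 2 it was 3, and after quantile normalization 4. Without Dlk1+Sca1+ replicate 1 the count was 5, and without replicate 3 of that population 4. Bub1, a kinase of the spindle checkpoint, ranged from 6.13 to 6.73 on Dlk1+ arrays (median 6.41) and from 6.65 to 7.89 on the others (median 7.38), and fell by 0.97 ± 0.18 (adjusted p = 0.0149, and 0.0519 without CD26+ replicate 1). Ube2c, the ubiquitin-conjugating enzyme of the anaphase-promoting complex, ranged from 7.27 to 8.53 (median 8.19) against 8.48 to 9.23 (median 8.80), and fell by 0.81 ± 0.14 (adjusted p = 0.011).

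The other 2 large falls were those of the DNA topoisomerase gene Top2a (-0.80 ± 0.17, adjusted p = 0.0306) and the kinetochore gene Cenpf (-0.77 ± 0.16, adjusted p = 0.0233). These calls held in 4 and 7 of the 12 fits that left out 1 array, and that of Top2a ended after quantile normalization (adjusted p = 0.0625). In Ube2c the difference was -0.29 ± 0.2 between the Sca1-negative and -1.33 ± 0.2 between the Sca1-positive sorts. Of 25 DNA replication and G1/S genes 3 were lower and none higher (median -0.27), where 1.28% of all genes fell. The 3 were Cdc6 (-0.68), Tyms (-0.62) and Uhrf1 (-0.59), and 24 of the 25 had a difference below 0. After quantile normalization none of these 3 was called, and Cdc6, Tyms and Uhrf1 held in 2, 6 and 2 of the 12 fits that left out 1 array. In bulk RNA, fewer cycling cells and less of these RNAs in each cell cannot be told apart.

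**Figure D4:**
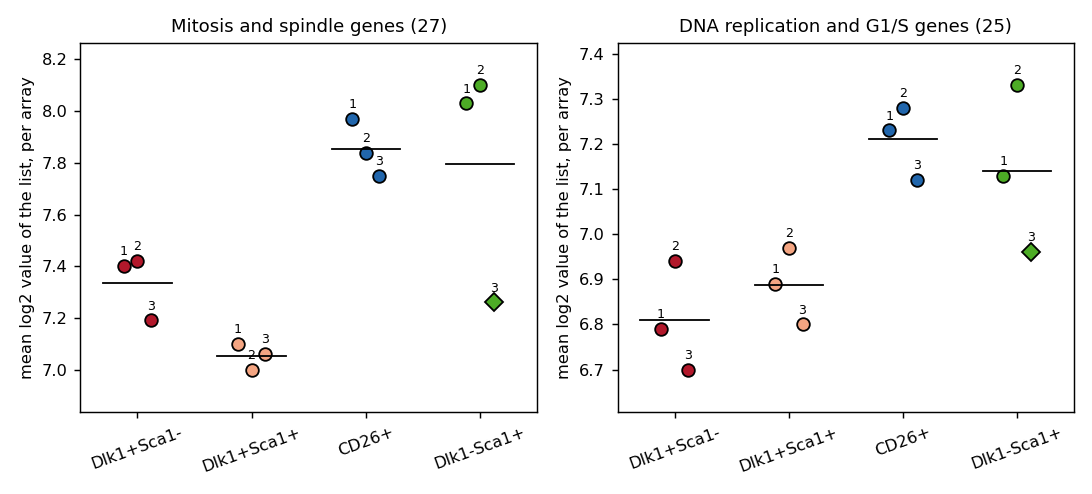
Mean log2 value over the 27 mitosis genes (left) and 25 DNA replication genes (right) on each array, numbered by replicate, with a line at the mean of the population. All mitosis values of Dlk1+ arrays lie at or below 7.42, and among the others only Dlk1-Sca1+ replicate 3 (7.26, diamond) does.

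Promoters of mitotic genes are known for 2 short elements, the cell cycle homology region (TTTGAA) and the CCAAT box, bound respectively by complexes that include the DREAM and B-Myb proteins and by NF-Y. Since the mitotic genes had differences in one direction, windows from 250 bases before to 50 bases after the annotated start were searched for both on either strand, with overlapping matches counted, using the first promoter that RefSeq lists per gene. TTTGAA was found in 18 of the 23 mitosis genes with a window (78.3%), in 2 of 22 replication genes (9.09%) and in 15.8% of 16918 genes tested. CCAAT was found in 73.9%, 72.7% and 38.4%, and both elements in 65.2%, 9.09% and 6.4%. The list was not chosen by its promoters, and a match is a description of the letters only. The 4 mitotic genes with the largest falls are printed because 3 of them hold both elements and Bub1 holds CCAAT alone. Letters that match either element on either strand are in capitals (RefSeq, GRCm38.p6).
Bub1, chr2:127831810-127832109, minus strand: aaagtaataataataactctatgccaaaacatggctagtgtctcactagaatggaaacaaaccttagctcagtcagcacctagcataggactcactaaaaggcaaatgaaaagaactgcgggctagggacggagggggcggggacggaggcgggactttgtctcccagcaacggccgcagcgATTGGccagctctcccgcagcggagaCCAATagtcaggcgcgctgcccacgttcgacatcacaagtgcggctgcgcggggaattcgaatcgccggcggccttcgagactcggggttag
Ube2c, chr2:164769679-164769978, plus strand: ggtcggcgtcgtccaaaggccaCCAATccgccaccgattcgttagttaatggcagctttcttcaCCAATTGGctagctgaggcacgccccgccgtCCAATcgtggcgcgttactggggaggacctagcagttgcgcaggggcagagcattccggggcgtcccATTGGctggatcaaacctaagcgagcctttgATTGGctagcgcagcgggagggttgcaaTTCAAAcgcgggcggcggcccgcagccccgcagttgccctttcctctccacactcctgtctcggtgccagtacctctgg
Top2a, chr11:99024140-99024439, minus strand: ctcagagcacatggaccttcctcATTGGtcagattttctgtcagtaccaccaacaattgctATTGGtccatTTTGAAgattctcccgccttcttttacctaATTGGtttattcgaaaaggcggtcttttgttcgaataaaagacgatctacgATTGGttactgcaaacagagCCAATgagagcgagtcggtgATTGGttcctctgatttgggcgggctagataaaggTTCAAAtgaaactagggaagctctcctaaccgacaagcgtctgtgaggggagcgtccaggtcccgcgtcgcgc
Cenpf, chr1:189688037-189688336, minus strand: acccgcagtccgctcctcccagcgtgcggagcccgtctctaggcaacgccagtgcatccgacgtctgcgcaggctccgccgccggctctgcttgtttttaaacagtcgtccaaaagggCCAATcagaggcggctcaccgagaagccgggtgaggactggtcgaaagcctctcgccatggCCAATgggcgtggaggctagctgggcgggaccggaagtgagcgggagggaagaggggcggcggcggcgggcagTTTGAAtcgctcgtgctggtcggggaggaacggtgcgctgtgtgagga
Top2a has 2 matches of TTTGAA and 6 of CCAAT, Ube2c 1 and 6, Cenpf 1 and 2, and Bub1 none and 2.

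Genes of fat cell development gave few calls in the pooled comparison, where 0.798% of all genes rose and 1.28% fell. Of 27 adipogenic regulators 1 rose, Zfp521, a zinc finger protein that restrains adipogenesis in mouse cells (0.91 ± 0.20, adjusted p = 0.0306; called in 5 of the 12 fits that left out 1 array). None of 25 lipid uptake and storage genes was called by limma with 12 or 11 arrays, and 1 had an unadjusted p under 0.05 (median -0.04). Notch receptors, ligands and targets, with which Dlk1 is linked by its EGF-like repeats, gave 1 call of 27. Notch3 ranged from 6.71 to 7.08 on Dlk1+ arrays and from 6.23 to 6.53 on the others, and rose by 0.47 ± 0.11 (adjusted p = 0.043), a call that held in 1 of the 12 fits. None of 20 contractile and TGF-beta response genes was called (4 at an unadjusted p under 0.05). Among 19 fascia and adventitia progenitor genes 2 rose and 2 fell (0 to 3 in either direction without single arrays), and among 33 dermal transcription factors only Tbx3 rose with 12 arrays (0.54 ± 0.12, adjusted p = 0.0369). Tbx3 was called in 3 of the 12 fits that left out 1 array, and with 11 arrays 2 of the 33 rose and 3 fell.

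Chemokines and cytokines rose in 4 of 37 cases with none lower (median 0.27), where 0.798% of all genes rose and 1.28% fell. Il6 ranged from 6.99 to 9.27 on Dlk1+ arrays (median 8.31) and from 5.55 to 8.29 on the others (median 6.79), and rose by 1.33 ± 0.20 (adjusted p = 0.00575). Cxcl10, induced by interferon, rose by 1.06 ± 0.19 (adjusted p = 0.0122), the monocyte attractant Ccl7 by 0.97 ± 0.17 (adjusted p = 0.0113), and Cxcl12, the ligand of CXCR4, by 0.69 ± 0.14 (adjusted p = 0.0246; called in 5 of the 12 fits that left out 1 array). The groups overlapped in all 4, and the 4 population differences of Il6, Ccl7 and Cxcl12 had no common direction, since the Dlk1+Sca1- mean was below that of Dlk1-Sca1+ cells. The complement inhibitor gene Serping1 rose by 0.94 ± 0.15 (adjusted p = 0.00605), and Masp1, a serine protease of the lectin pathway, fell by 0.87 ± 0.19 (adjusted p = 0.0314), the 2 calls among 18 complement genes (median 0.21). Masp1 was called in 2 of the 12 fits that left out 1 array and not after quantile normalization. Of 28 immediate early and dissociation genes 3 rose, Klf2 (0.66 ± 0.13) and the heat shock genes Hspa1a (0.32 ± 0.07) and Hspa1b (0.31 ± 0.06), and the median of that list was 0.26. None of the 3 was called after omission of replicate 1 of CD26+ or of replicate 1 or 2 of Dlk1-Sca1+. Without trend and robust fitting Hspa1a and Hspa1b were not called by limma (adjusted p = 0.115 and 0.124). The mean of the 28 genes was 9.74 in Dlk1+Sca1+, 9.39 in Dlk1+Sca1-, 9.41 in Dlk1-Sca1+ and 9.29 in CD26+ cells. The part of these genes in the chemokine values was not tested.

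Markers of other cells that a sort can carry along were measured as well. Of 20 macrophage markers 3 rose, Pf4 (1.36 ± 0.17, adjusted p = 0.00158), Mrc1 (0.77 ± 0.10, adjusted p = 0.00239) and Aif1 (0.55 ± 0.13, adjusted p = 0.0482; not called with 11 arrays), and 17 had a difference above 0. Over all genes 0.798% rose. The macrophage list was higher in 1 population. The mean level of the list was 5.53 to 5.73 on Dlk1+Sca1+ arrays, 4.98 to 5.17 on Dlk1+Sca1- arrays and 4.92 to 5.04 on the others. Mrc1 was 6.19 ± 0.22 (SD, n = 3) in Dlk1+Sca1+ and between 4.74 and 4.93 in the means of the other populations. Its difference was 0.09 ± 0.15 between the Sca1-negative and 1.45 ± 0.15 between the Sca1-positive sorts, and the leukocyte marker Ptprc was between 3.14 and 3.35 in all 4 population means. The part of macrophage RNA in the chemokine calls was not tested. Of 12 pericyte markers Abcc9 (1.02 ± 0.22, adjusted p = 0.0297) and Notch3 rose, with list means of 6.58 to 7.26 on Dlk1+ arrays and 6.57 to 6.94 on the others. Abcc9 was called in 4 of the 12 fits that left out 1 array, and over these fits 0 to 2 of the list rose. Endothelial, skeletal muscle, keratinocyte, Schwann cell and melanocyte, lymphocyte and mast cell, and red blood cell markers had no call with 12 arrays, and 1, 5, 0, 0, 2 and 1 members at an unadjusted p under 0.05. Keratinocyte markers averaged 6.07 and 6.24 on CD26+ replicates 2 and 3 and 5.05 to 5.50 on the other 10 arrays.

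**Figure D5:**
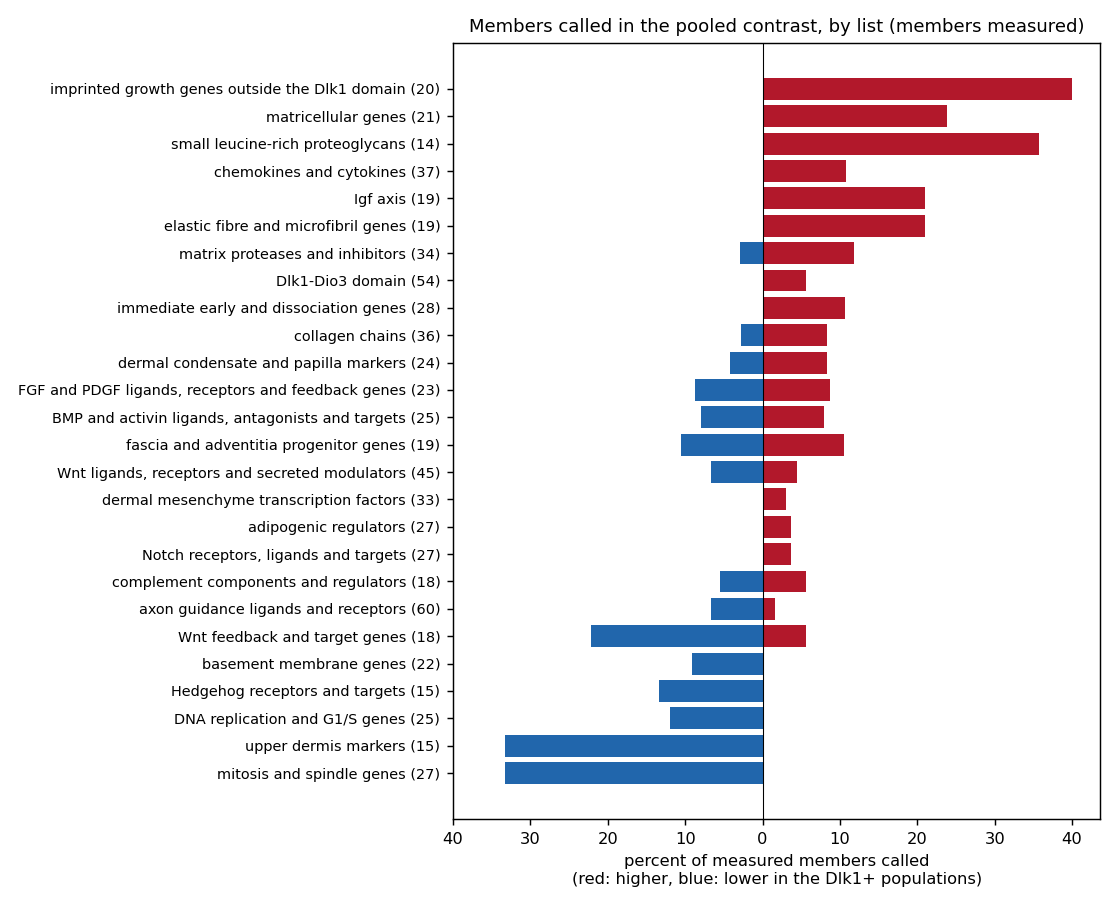
Percent of measured members called higher (red, right) or lower (blue, left) in the pooled comparison for each gene list with at least 1 call, markers of other cell types left aside, with the number measured in parentheses. Over all 22180 genes 0.798% were higher and 1.28% lower, and the members were chosen with earlier results of these data known.

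Whether the Dlk1 difference was alike in the Sca1-negative and Sca1-positive sorts was tested as the difference between the 2 Dlk1 differences. The study gated CD26+ cells by CD26 and Sca1 and names no Dlk1 gate for them. Sca1 and the CD26 gate therefore cannot be told apart in this contrast. Limma called 3 genes (0.0135%) with 12 arrays and 1 (0.00451%) with 11, while 1333 had an unadjusted p under 0.05. Foxd2os, a noncoding RNA from the strand opposite Foxd2, was 6.4 to 6.78 in Dlk1+Sca1- and 5.44 to 5.96 in CD26+, but 4.65 to 5.06 in Dlk1+Sca1+ and 6.24 to 6.99 in Dlk1-Sca1+. The calcium-binding protein gene S100a4 and the microtubule regulator gene Stmn2 had the same pattern, which was higher than CD26+ in Dlk1+Sca1- cells and below Dlk1-Sca1+ in Dlk1+Sca1+ cells. Such genes cancel in the pooled comparison, where Foxd2os differed by -0.34 ± 0.15, S100a4 by -0.34 ± 0.10 and Stmn2 by -0.19 ± 0.13, none called. The same 12 arrays compared by Sca1 instead of Dlk1, both Sca1+ populations minus both others, gave 284 calls (1.28%), and 174 (0.784%) with 11 arrays.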

How the data were processed

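RNA of 4 sorted fibroblast populations was measured on 12 arrays, 3 per population. The deposited values are log2 expression values from the authors, 1 per probe set and array, with array medians between 5.38 and 5.51. Summarization and normalization by the authors were not given in the sources used here. No further normalization was applied. The submitters' processing notes name the build mm10. Signal over background was not used here, and the number of arrays limits the precision. Background compresses the differences of dim genes.

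Of 41345 probe sets, the 23521 with 1 gene symbol were used (1820 had several and 16004 none). Where a gene had several, the one with the highest mean was kept, which left 22180 genes. Positions and sequences are those of RefSeq on GRCm38.p6, the same build, matched for 21994 genes.

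The comparison was a contrast in limma (version 3.58.1, R 4.3.3, statmod 1.5.0): 1 mean per population, eBayes with trend and robust fitting, two-sided, Benjamini-Hochberg over all genes, with 8 residual degrees of freedom (7 with 11 arrays). The procedure was tested on simulated data. Differences are given with the SE of the fit. Lists were counted, without set tests.

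The members and lists were chosen with earlier results of these data known. Genes were named by rule: among called genes with a common direction, the 14 that rose and the 14 that fell furthest, passing over predicted genes, small RNAs and receptor families; the 8 smallest p-values for the difference between the 2 Dlk1 differences; gate genes; up to 4 called and 2 other members per list; and any gene of the Dlk1-Dio3 domain. Further names are marked as chosen after their values were seen or complete a count. Alternatives were leaving out each array, replicate number as a block, quantile normalization, centering on medians, leaving out the dimmest 40% of genes, no trend or robust fitting, array weights, means of probe sets, and 2 means only.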

Additional observations from a re-analysis of the deposited data

Results flagged for a closer look

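In 3 genes the Dlk1 difference between the Sca1-negative sorts was called as unlike that between the Sca1-positive sorts (limma, Benjamini-Hochberg over all genes). For Foxd2os the 2 differences were 0.93 and -1.62, which lie 2.55 ± 0.31 SE apart (adjusted p = 0.0209). S100a4, a calcium-binding protein gene, had 0.44 and -1.12, a gap of 1.57 ± 0.20 (adjusted p = 0.0209), and Stmn2, a microtubule regulator gene, 0.70 and -1.08, a gap of 1.78 ± 0.25 (adjusted p = 0.0473). In each gene all 3 Dlk1+Sca1- arrays lay above all 3 CD26+ arrays and all 3 Dlk1+Sca1+ arrays below all 3 Dlk1-Sca1+ arrays. Without Dlk1-Sca1+ replicate 3 the gaps were 2.32, 1.48 and 1.80, with adjusted p-values of 0.0317, 0.0625 and 0.0681. When 1 array was left out in turn, Foxd2os was called in 5 of 12 fits, S100a4 in 2 and Stmn2 in 1, with gaps of 2.32 to 2.70, 1.48 to 1.67 and 1.64 to 1.89.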

How the results depend on the processing

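No difference of the 106 named and called genes changed sign in the 12 fits with 1 array left out or in the 7 other fits with 1 mean per population (6 for genes absent from one). Calls of 58 of them held in all of these. The count of 460 became 184 with 2 means only, a fit that puts the distance between populations into the error. That fit, applied to single genes after seeing the data, called 47 of the 106 and 22 of the 28 largest changes, with no change of sign, and 32 genes were called in every fit. Other alternatives gave 331 (quantile normalization) to 564 genes (dimmest genes left out). Quantile normalization moved the split to 50.5% higher, against 38.5%. Leaving out 1 array gave 181 to 709 genes for the pooled comparison, 167 to 668 with a common direction, 1 to 30 in all 4 single comparisons, 15 to 243 between the Sca1-negative sorts and 12 to 263 between the Sca1-positive sorts. Arrays whose omission moved the pooled count by over 1.5 times were CD26+ replicates 1 (181), 2 (291) and 3 (275), Dlk1+Sca1+ replicates 1 (287) and 3 (250), and Dlk1-Sca1+ replicates 1 (208), 2 (188) and 3 (709). Array weights gave 262 genes between the Sca1-negative sorts. The 3 genes in which the 2 Dlk1 differences were unlike became 7 after centering, 13 with quantile normalization, 15 without dim genes, 8 without trend, 20 with array weights, 8 with means of probe sets, and 0 to 34 without 1 array. The cause of these changes was not tested.

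Arrays of the same replicate number were only weakly alike. Over 18 same-numbered pairs the deviations correlated at -0.04 to 0.14 (mean 0.04), with 2 over 0.1. Other pairs of arrays from different populations gave -0.14 to 0.07 (mean -0.02). The mean of the DNA replication list was lowest on replicate 3 and highest on replicate 2 in every population. What arrays of the same number have in common was not tested. With the replicate number as a block, 547 genes were called in the pooled comparison and 7 for the difference between the Dlk1 differences. Of the named calls 2 were not made with the block, those of Notch3 (adjusted p = 0.0567) and Mir329 (adjusted p = 0.0556).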
